A study of Mus musculus with 12 samples.

Results

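The 8 genes described here are Igf2bp1, Igf2bp2, Igf2bp3, Lin28b, Hmga1, Hmga2, Afp and Gpc3, taken by symbol from the 47729 genes counted in mouse liver cancer cell lines. In lymph node metastasis lines the BRAF inhibitor PLX4720 raised Igf2bp1 8.91-fold, and this change was larger than in primary tumour lines, where it was 1.03-fold and did not pass the test. Hmga1 and Hmga2 fell with PLX4720 in all 6 lines, by 1.66 and 1.81 on the log2 scale. Lin28b, Igf2bp1, Igf2bp3 and Afp stood lower in every metastasis line than in any primary line without the drug. Of these, only Igf2bp1 passed the test, at 58.0-fold lower. The share of all genes that separate the lines in this way is not given here. Igf2bp2 was measured in every line at 28.2 to 76.4 CPM (fragment counts scaled to library size with TMM factors), and Gpc3, a marker of human hepatocellular carcinoma, was close to 0 in all of them.

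These genes are grouped as oncofetal: embryonic or fetal tissues express them and tumours can express them again, while most adult tissues express them weakly or not at all, with Igf2bp2 as the exception. LIN28B is an RNA-binding protein that blocks the maturation of the let-7 microRNAs, and let-7 in turn pairs with the messages of Lin28b, Hmga2 and the Igf2bp genes and lowers them. IGF2BP1, IGF2BP2 and IGF2BP3 bind messenger RNAs and affect their stability, transport and translation. HMGA1 and HMGA2 are small chromatin proteins that bind the minor groove of AT-rich DNA through AT hooks. AFP is the main serum protein of the fetal liver, made from a gene next to the albumin gene, and GPC3 is a heparan sulphate proteoglycan of the cell surface.

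RNA was sequenced from 12 libraries of 6 cell lines. Lines M1, M2 and M3 came from lymph node metastases and lines T1, T2 and T3 from primary liver tumours; the labels give all of them the genotype BRAFV600E with p53 KO, and the text of the series places the BRAFV600E expression in hepatocytes and names Trp53 or Cdkn2a deletion. Each line gave 1 library after PLX4720, an inhibitor of mutant BRAF, at 2 µM and 1 after DMSO, its solvent, both at 48 h, so that the 4 groups are metastasis lines with PLX4720, metastasis lines with DMSO, primary lines with PLX4720 and primary lines with DMSO, with n = 3 lines each. Replicates are cell lines grown in culture. Nothing in the labels ties a line to an animal. M2, M3 and T3 carry the same leading number in the table names, which leaves unknown how independent they are.

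Libraries held 31992512 to 39288748 counted fragments. The share of mitochondrial genes was 3.67% for T3 with PLX4720 and lay between 0.189% and 0.712% elsewhere. Trp53 was counted at 2.79 to 8.55 CPM in all 12 libraries, and no library without the deletion was there to set it against. Cdkn2a stood at 0.466, 0.182 and 254 CPM in M1, M2 and M3 with PLX4720 and 0.149, 0 and 229 CPM with DMSO, against 81.9 to 175 CPM in primary lines with PLX4720 and 79.2 to 162 CPM with DMSO. M1 and M2 thus nearly lacked its RNA while M3 and the primary lines did not, although the labels give all lines 1 genotype; the part of this in the differences by site was not tested. The label of hepatocellular carcinoma was set against marker genes. Summed over 6 markers of bile duct cells (cholangiocytes), primary lines held 1073 to 1668 CPM with PLX4720 and 874 to 1320 CPM with DMSO. Metastasis lines held 19.95 to 38.7 CPM of these with PLX4720 and 22.1 to 34.1 CPM with DMSO. Summed over 6 epithelial markers, metastasis lines held 1.92 to 4.49 CPM with PLX4720 and 0.595 to 14.8 CPM with DMSO, and primary lines held 4620 to 6657 CPM with PLX4720 and 4347 to 6699 CPM with DMSO. Summed over 10 hepatocyte markers, metastasis lines held 0.269 to 1.19 CPM over both treatments. Alb, Ttr, Serpina1a and Tat were at 0 fragments in all 6 of their libraries. Primary lines held 133 to 304 CPM, most of it from Hnf4a alone. That gene held 121 to 266 CPM in primary lines with PLX4720 and 141 to 251 CPM with DMSO. Alb averaged 7.41 and 3.65 CPM there. Of 8 tested mesenchymal and fibroblast markers, 5 were higher and 0 lower in metastasis than in primary lines under DMSO, with a median difference of +9.22. Without Vim, which primary lines also expressed, 8 of these markers summed to 4804 to 11870 CPM in metastasis lines with PLX4720 and 2218 to 5343 CPM with DMSO, against 2.18 to 28.1 CPM and 3.12 to 11.6 CPM in primary lines with the same treatments; Vim was left out after its values were seen. Epithelial and hepatocyte markers were thus nearly absent from lines M1 to M3, which the labels also call hepatocellular carcinoma, and mesenchymal markers other than Vim nearly absent from T1 to T3. The part of this in any difference by site below was not tested. In bulk RNA, fewer cells of a type and less RNA per cell cannot be told apart.

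The let-7 family is known to link Lin28b to several of these genes, so its sequences are shown first; the microRNAs themselves were not measured here. Of 11 mature mouse let-7 family members in the RefSeq-based table (GRCm38.p6), 10 share the seed, bases 2 to 8 from the 5′ end, which is written in capitals. The exception is let-7j, shown last.
let-7a: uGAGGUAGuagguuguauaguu
let-7g: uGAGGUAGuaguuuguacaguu
miR-98: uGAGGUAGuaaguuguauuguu
let-7j: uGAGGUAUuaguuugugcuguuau

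The match to the shared seed, CTACCTC, was searched on the sense strand in the longest 3′ UTR that GENCODE vM21 (GRCm38) gives each of the 8 genes. It stood 4 times in Igf2bp1, in Hmga2 and in Lin28b, once each in Igf2bp2, Igf2bp3 and Hmga1, and not in Afp or Gpc3. Over 21027 mouse 3′ UTRs, 9.02% held at least 1 match. Long UTRs hold more by length alone: among those within 20% of the length of the gene's own, 0.355% had 4 or more matches for Igf2bp1, 0.134% for Hmga2 and 0.236% for Lin28b. A match is a stretch of letters and no evidence of use. The 8 windows of Igf2bp1 and Hmga2 are shown, with the match in capitals. With PLX4720, Igf2bp1 rose in metastasis lines and Hmga2 fell at both sites. Lin28b, also with 4 matches, did not change detectably. The part of let-7 in these changes was not tested.
Igf2bp1, chr11:95961777-95961799, minus strand: ctgtgcgaagtaaaCTACCTCaa
Igf2bp1, chr11:95959356-95959378, minus strand: agcagtgctattaaCTACCTCag
Igf2bp1, chr11:95958762-95958784, minus strand: tataaatggatgaaCTACCTCag
Igf2bp1, chr11:95958139-95958161, minus strand: cttttggttttaatCTACCTCtt
Hmga2, chr10:120364223-120364245, minus strand: ccgacattcaatttCTACCTCag
Hmga2, chr10:120362986-120363008, minus strand: cccactcctcaataCTACCTCtg
Hmga2, chr10:120362548-120362570, minus strand: tgatttgcaaggaaCTACCTCca
Hmga2, chr10:120361690-120361712, minus strand: atcaaaacacactaCTACCTCtt

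Each gene was tested with edgeR's quasi-likelihood test over all genes that passed a filter on low counts, and was called where the Benjamini-Hochberg adjusted p was under 0.05. Of the 8 genes, 7 passed the filter and Gpc3 did not. Over all 6 lines PLX4720 raised 1 of the 7 (Igf2bp1) and lowered 3 (Hmga1, Hmga2 and Afp), where 14.5% and 12.7% of the 16555 genes tested were higher and lower. In metastasis lines it raised 2 (Igf2bp1 and Igf2bp3) and lowered 3 (Hmga1, Hmga2 and Afp), against 12.0% and 8.36% of all genes. In primary lines it raised 0 and lowered 2 (Hmga1 and Hmga2), against 4.46% and 3.77%. The PLX4720 change itself differed between the sites for 1 gene, Igf2bp1, which was higher in metastasis minus primary lines, and for 0 in the other direction, against 1.85% and 1.09%. Between metastasis and primary lines under DMSO, 1 gene was higher (Hmga1) and 1 lower (Igf2bp1), against 4.64% and 7.49% of 14992 genes tested. Under PLX4720, 0 were higher and 1 was lower (Afp), against 5.62% and 7.88% of 15276. The median change of the 7 genes was -0.17 over all 6 lines, -0.30 in metastasis lines and -0.05 in primary lines, against 0.03, 0.02 and 0.03 over all genes tested. Their median difference by site was -2.38 under DMSO and -1.79 under PLX4720, against 0.00 and 0.03. These comparisons share libraries with each other.

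**Figure D1:**
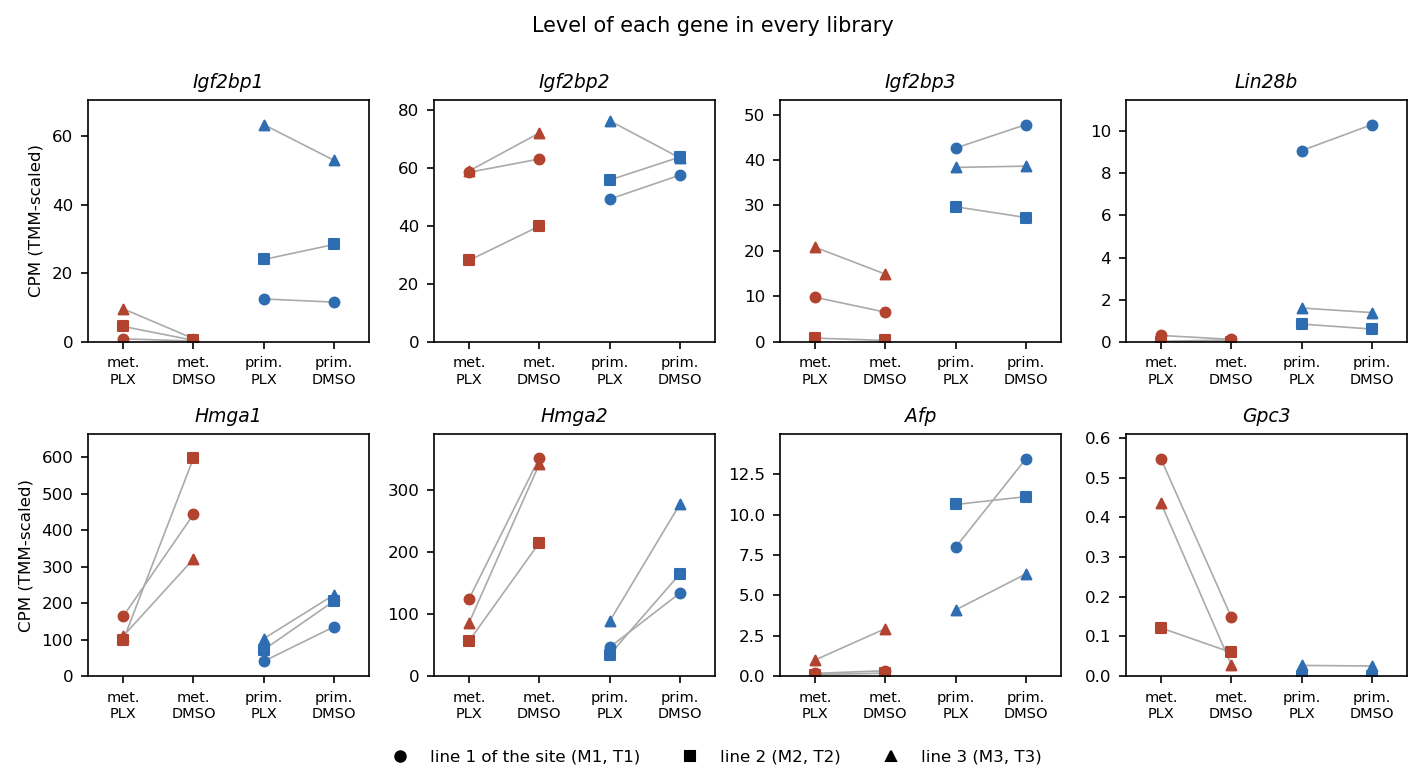
Level of each of the 8 genes in every library, in TMM-scaled CPM (linear axes that start at 0 and differ between panels). Points are libraries, grey lines join the PLX4720 and DMSO libraries of 1 cell line, red marks metastasis lines and blue primary lines. Hmga1 and Hmga2 are lower with PLX4720 in all 6 lines, and Igf2bp1, Igf2bp3, Lin28b and Afp stand lower in each metastasis line than in each primary line of the same treatment. The share of all genes that separate the lines by site is not given here.

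Igf2bp1 (ENSMUSG00000013415, chr11:95957163-96005940, minus strand) encodes the family member most closely tied to fetal tissue, also known as a stabiliser of the Myc message. With PLX4720 it stood at 0.876, 4.49 and 9.63 CPM in M1, M2 and M3, against 0.209, 0.446 and 0.929 CPM in the same lines with DMSO. Each metastasis line was higher with the drug, by 4.20, 10.1 and 10.4 times in M1, M2 and M3, although the M1 library with PLX4720 lay below the M3 library with DMSO. The fitted change was +3.15 ± 0.24 (log2, SE) at an adjusted p of 9.478e-05. The counts behind it were 32, 148 and 331 fragments with PLX4720 and 7, 15 and 32 with DMSO, which is little for a log2 change, so the SE is approximate.

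In primary lines Igf2bp1 stood at 12.5, 23.996 and 63.3 CPM with PLX4720 and 11.6, 28.4 and 52.9 CPM with DMSO in T1, T2 and T3. The drug moved each of these lines by at most 1.197 times, in no common direction, and the fitted change was +0.04 ± 0.16 with an adjusted p of 0.894. The test of the difference between the sites gave +3.11 ± 0.29 (log2, metastasis minus primary) with an adjusted p of 0.00298. Leaving out any 1 line kept it between 2.86 and 3.31. With PLX4720 the mean level in metastasis lines was 5.00 ± 4.40 CPM against 33.3 ± 26.6 CPM in primary lines, and with DMSO it was 0.528 ± 0.367 CPM against 30.9 ± 20.8 CPM (SD, n = 3 lines each). The groups by site did not overlap under either treatment, a separation whose share over all genes is not given here. Under DMSO the difference was -5.86 ± 0.84 with an adjusted p of 0.008997, and under PLX4720 it was -2.70 ± 0.97 with an adjusted p of 0.1284.

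Igf2bp3 (ENSMUSG00000029814, chr6:49085223-49214957, minus strand), the other strictly fetal member of the family, stood at 9.80, 0.819 and 20.8 CPM with PLX4720 and 6.54, 0.298 and 14.9 CPM with DMSO in M1, M2 and M3. All 3 metastasis lines were thus higher with the drug, by 1.5, 2.75 and 1.40 times, while the lines differed far more among themselves. The fitted change was +0.64 ± 0.16 with an adjusted p of 0.02095, and this call is close to the threshold: the adjusted p was 0.05897 without M1, 0.05204 without M3 and 0.07978 in a fit of the metastasis libraries alone. In T1, T2 and T3 the level was 42.6, 29.7 and 38.4 CPM with PLX4720 and 47.8, 27.3 and 38.7 CPM with DMSO, a change of -0.02 ± 0.13 with an adjusted p of 0.9512. The difference between the sites was +0.66 ± 0.20 with an adjusted p of 0.1482, and so did not pass. Each metastasis line lay below each primary line under both treatments, a separation whose share over all genes is not given here. The difference under DMSO was -2.38 ± 1.09 with an adjusted p of 0.2332, and so did not pass. Of the exon bases of Igf2bp3, 18.7% overlap those of Malsu1 on the opposite strand, which held 543 to 726 fragments, and the counting used no strand option. The part of Malsu1 in the Igf2bp3 counts was not tested; M2 with DMSO held 10 fragments of Igf2bp3.

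Igf2bp2 (ENSMUSG00000033581, chr16:22059009-22163299, minus strand) is the family member that adult tissues also express. It stood at 58.6, 28.2 and 59.1 CPM with PLX4720 and 63.2, 40.0 and 72.2 CPM with DMSO in M1, M2 and M3, and at 49.3, 55.9 and 76.4 CPM with PLX4720 and 57.7, 63.9 and 63.6 CPM with DMSO in T1, T2 and T3. These ranges overlap between all 4 groups. The change over all 6 lines was -0.17 ± 0.08 with an adjusted p of 0.1621, and 5 of 6 lines were lower with the drug. Between metastasis and primary lines the difference was -0.07 ± 0.25 under DMSO, with an adjusted p of 0.9066, and -0.29 ± 0.34 under PLX4720, with an adjusted p of 0.6404.

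Per length of exon, the 3 family members can be set side by side. Igf2bp2 made up 70.0% to 87.5% of the summed CPM per kb in metastasis lines with PLX4720 and 84.1% to 98.5% with DMSO, and 48.8% to 56.2% in primary lines with PLX4720 and 46.6% to 58.8% with DMSO. Igf2bp1 made up 0.952%, 10.3% and 8.41% in M1, M2 and M3 with PLX4720 and 0.223%, 0.810% and 0.797% with DMSO. In primary lines its share was 9.61% to 29.8% with PLX4720 and 7.89% to 28.6% with DMSO. The share of Igf2bp1 in M2 and M3 with PLX4720 thus came near that of T1, the primary line with the lowest share. Its level with PLX4720 was 0.464 and 0.994 CPM per kb in M2 and M3, against 1.29 in T1. The summed level of the family stayed at 4.51 and 11.8 CPM per kb in M2 and M3 with PLX4720, against 5.69 and 12.0 with DMSO. In T1 with PLX4720 that sum was 13.4 CPM per kb.

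**Figure D2:**
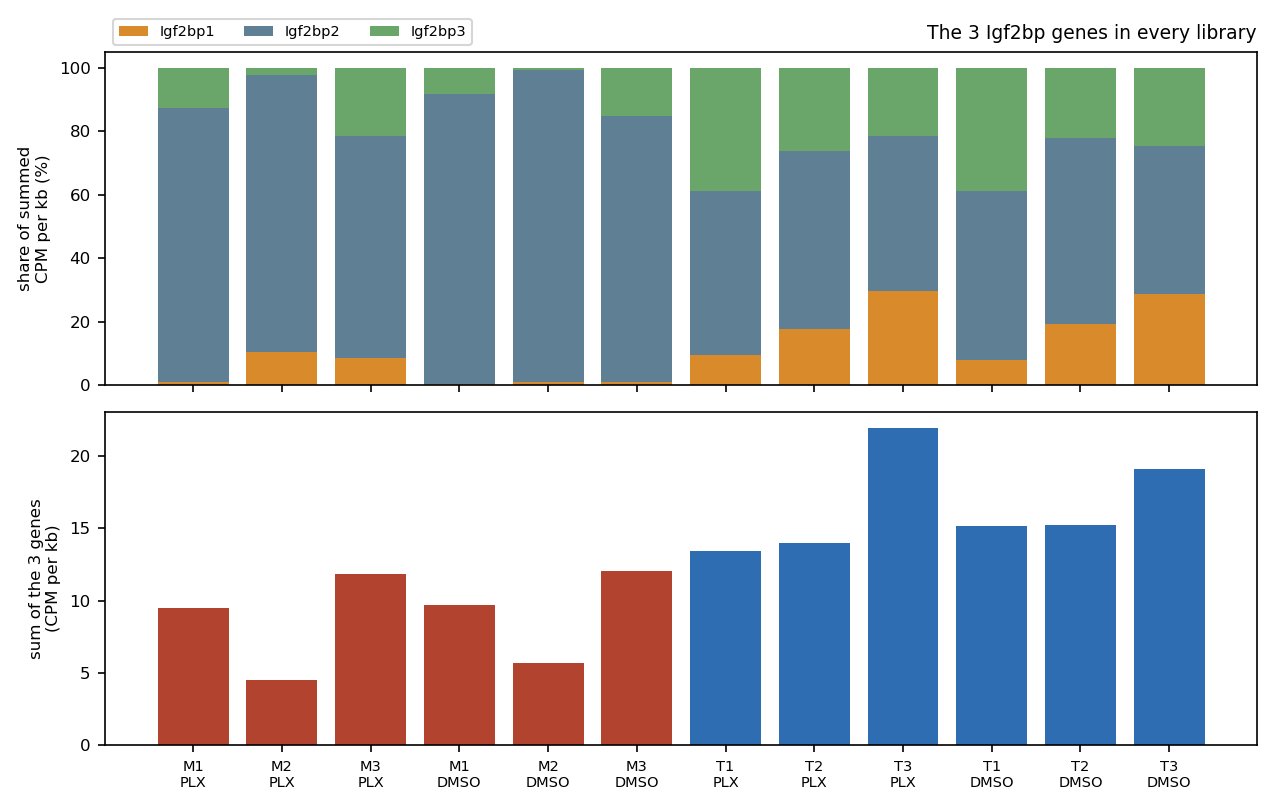
Share of each Igf2bp gene in their summed CPM per kb of exon (top, percent) and that sum (bottom, CPM per kb) in the 12 libraries, metastasis lines left and primary lines right, each with PLX4720 before DMSO; bars are single libraries. Igf2bp2 holds 70.0% to 98.5% in metastasis lines, and Igf2bp1 reaches 10.3% in M2 with PLX4720.

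Lin28b (ENSMUSG00000063804, chr10:45376620-45470201, minus strand) was mainly a gene of 1 line. In T1 it stood at 9.07 CPM with PLX4720 and 10.3 CPM with DMSO, against 0.844 to 1.60 CPM in T2 and T3 with PLX4720 and 0.605 to 1.39 CPM with DMSO. In metastasis lines it held 11, 0 and 1 fragments in M1, M2 and M3 with PLX4720 and 4, 0 and 3 with DMSO. Summed over the 3 lines of a site, its level in metastasis lines was 0.0296 times that in primary lines with PLX4720 (95% interval 0.0152 to 0.0523) and 0.0175 times with DMSO (0.00699 to 0.0363). These intervals cover counting error only, and not the spread between lines. Over lines the difference was -5.05 ± 1.51 with an adjusted p of 0.07858 under PLX4720. It was -5.81 ± 1.49 with an adjusted p of 0.05358 under DMSO, so it passed under neither. The groups did not overlap, but the share of all genes that separate the lines in this way is not given here. PLX4720 did not change it detectably, at +0.34 ± 0.37 with an adjusted p of 0.5459 over all 6 lines. Its paralogue Lin28a was at 0 fragments in all 12 libraries.

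Among 10 tested genes of LIN28 action and let-7 processing other than Lin28b, PLX4720 raised 2 and lowered 1 over all 6 lines, with a median change of -0.01. The 2 that rose were the terminal uridylyltransferases Tut4, at +0.62 ± 0.13 with an adjusted p of 0.008138, and Tut7, at +0.24 ± 0.06 with an adjusted p of 0.02456; both enzymes add uridines to let-7 precursors. Tarbp2, a partner of Dicer, fell by 0.20 on the log2 scale with an adjusted p of 0.0456. By site, 0 of these 10 passed in either direction under DMSO or under PLX4720. Of 20 further genes known as let-7 targets, 1 was higher with PLX4720 over all 6 lines (Igf1r, an insulin-like growth factor receptor, at +0.26) and 3 were lower. Among those lower were the cyclin Ccnd1 at -0.57 ± 0.10 with an adjusted p of 0.00425 and the cell cycle factor E2f5 at -0.26 ± 0.06 with an adjusted p of 0.01943. The median of the 20 was 0.02, near that of all genes. Between metastasis and primary lines under DMSO, E2f5 was higher by 1.09 and Plagl2, a zinc finger factor, lower at -1.48, and the other 18 did not pass.

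Of 6 tested transcripts known to be bound by IGF2BP proteins, 4 were higher and 1 was lower with PLX4720 over all 6 lines. The message of laminin beta 2, Lamb2, rose by 0.85 ± 0.07 with an adjusted p of 0.0001454, and it passed in metastasis lines, at +0.97, as in primary lines, at +0.74. Actb, the beta-actin message whose zipcode gave IGF2BP1 its first name, rose by 0.34 ± 0.07 over all 6 lines. Its change was +0.67 ± 0.10 in metastasis lines and 0.00 ± 0.10 in primary lines, and the difference between the sites passed the test at +0.67 ± 0.14 with an adjusted p of 0.03883. Cd44, an adhesion receptor, fell by 0.41 ± 0.10 on the log2 scale with an adjusted p of 0.01626 and was lower in 5 of 6 lines. Its change was -0.57 ± 0.14 in metastasis lines, with an adjusted p of 0.02192. In primary lines it was -0.26 ± 0.14, with an adjusted p of 0.2907. H19, a noncoding RNA, rose by 1.54 ± 0.44 with an adjusted p of 0.03211, on 1 to 56 fragments per library, and was higher in 5 of 6 lines. Myc stood at +0.28 ± 0.24 in metastasis lines, against -0.24 ± 0.24 in primary lines, and passed at neither site. The part of the Igf2bp genes in any of these changes was not tested.

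Hmga2 (ENSMUSG00000056758, chr10:120361275-120476469, minus strand) stood at 125, 56.6 and 86.0 CPM with PLX4720 and 352, 215 and 343 CPM with DMSO in M1, M2 and M3. In T1, T2 and T3 it stood at 46.4, 34.6 and 88.5 CPM with PLX4720 and 134, 165 and 278 CPM with DMSO. All 6 libraries with the drug lay below all 6 without it. The change over all 6 lines was -1.81 ± 0.11 with an adjusted p of 4.672e-05, at -1.81 ± 0.15 in metastasis lines and -1.81 ± 0.15 in primary lines. The difference between the sites was 0.00 ± 0.21 with an adjusted p of 1. By line, the level with DMSO was 2.83 to 3.99 times that with PLX4720 in metastasis lines and 2.89 to 4.77 times in primary lines. By site the mean was 1.58 times higher in metastasis lines under either treatment, a difference of +0.68 ± 0.43 under PLX4720 and +0.67 ± 0.34 under DMSO that did not pass, with adjusted p of 0.3712 and 0.2757 and overlapping groups.

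Hmga1 (ENSMUSG00000046711, chr17:27556620-27563674, plus strand) stood at 164, 97.6 and 109 CPM with PLX4720 and 443, 598 and 321 CPM with DMSO in M1, M2 and M3. In T1, T2 and T3 it stood at 40.4, 72.0 and 103 CPM with PLX4720 and 135, 206 and 223 CPM with DMSO. Every line was lower with the drug, and M2 dropped furthest, to a level 6.13 times below that with DMSO, against 2.17 to 3.35 times in the other 5 lines. The change was -1.66 ± 0.15 over all 6 lines with an adjusted p of 0.0002594, -1.86 ± 0.22 in metastasis lines with an adjusted p of 0.0006622 and -1.46 ± 0.22 in primary lines with an adjusted p of 0.009486. In primary lines the adjusted p was 0.08796 without T1 and 0.06124 without T2. The difference between the sites was -0.41 ± 0.30 with an adjusted p of 0.6399.

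By site, the Hmga1 groups did not overlap under DMSO, a separation whose share over all genes is not given here. Hmga1 was higher in metastasis than in primary lines under DMSO, at +1.29 ± 0.31 with an adjusted p of 0.04156. That call is fragile: leaving out T1 or T2 gave an adjusted p of 0.1019, T3 gave 0.06632, M1 gave 0.08714 and M2 gave 0.1215, and of these 6 fits only that without M3 kept the call, at 0.04243. Under PLX4720 the groups overlapped and the difference was +0.81 ± 0.37 with an adjusted p of 0.222. Per kb of exon, Hmga1 was the highest of the 8 genes on average in each of the 4 groups, at 62.1 ± 17.7 CPM per kb in metastasis lines with PLX4720 and 228 ± 69.7 with DMSO, and at 36.0 ± 15.6 in primary lines with PLX4720 and 94.5 ± 23.4 with DMSO (SD, n = 3 lines each). Hmga2 came next in metastasis lines, at 13.2 ± 5.04 CPM per kb with PLX4720 and 44.8 ± 11.3 with DMSO. In primary lines with PLX4720, Hmga2 at 8.35 ± 4.18 and Igf2bp2 at 8.49 ± 1.98 CPM per kb did not differ beyond their spread.

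Hmga1 counts carry a limit of identity. Hmga1b, on chromosome 11, has a transcript that is 99.8% identical to 1 of Hmga1 over 1602 aligned positions, so fragments can be split between both rows. Hmga1b took 15.01%, 1.046% and 27.2% of the fragments of the pair in M1, M2 and M3 with PLX4720 and 15.9%, 0.917% and 28.7% with DMSO. In T1, T2 and T3 it took 20.8%, 14.0% and 1.36% with PLX4720 and 19.8%, 15.8% and 1.27% with DMSO. The share was thus near 1% in M2 and T3 and 14.0% to 28.7% in the other 4 lines, and within a line it was much the same with and without the drug. With the counts of both rows summed, an alternative chosen after seeing the data, the Hmga1 change was -1.67 over all 6 lines with an adjusted p of 0.000242, and the difference by site under DMSO was +1.32 with an adjusted p of 0.01265.

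Since Hmga1 and Hmga2 moved together, their promoters are shown, from 250 bases before to 50 after a start, taken from the RefSeq-based table (GRCm38.p6). Capitals mark the GC box GGGCGG or its reverse complement, found 4 times at the upstream of 2 listed starts of Hmga1 and 1 time in Hmga2; 35.7% of 32851 mouse promoters hold at least 1. Among the other genes in the table it stood 4 times in Gpc3, 2 times in Igf2bp2, and not in Igf2bp3, Lin28b or Afp. Whether the GC box has a part in any change under PLX4720 was not tested.
Hmga1, chr17:27556324-27556623, plus strand: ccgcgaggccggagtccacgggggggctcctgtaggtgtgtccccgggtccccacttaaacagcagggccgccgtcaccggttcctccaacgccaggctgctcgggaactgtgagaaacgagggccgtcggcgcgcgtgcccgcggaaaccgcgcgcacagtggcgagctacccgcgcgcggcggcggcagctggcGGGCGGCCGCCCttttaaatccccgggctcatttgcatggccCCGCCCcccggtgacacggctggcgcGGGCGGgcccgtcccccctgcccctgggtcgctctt
Hmga2, chr10:120476420-120476719, minus strand: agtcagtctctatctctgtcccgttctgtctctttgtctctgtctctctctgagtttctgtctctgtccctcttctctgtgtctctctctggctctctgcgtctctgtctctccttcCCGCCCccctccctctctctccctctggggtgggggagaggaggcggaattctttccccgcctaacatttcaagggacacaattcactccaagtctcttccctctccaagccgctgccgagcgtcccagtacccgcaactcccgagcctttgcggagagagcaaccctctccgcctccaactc
Neither window held the AP-1 motif TGANTCA, the E-box CACGTG or the ETS-type motif CCGGAAG on either strand, which stood in 7.81%, 7.15% and 8.86% of all promoters. The windows of Igf2bp2, Igf2bp3, Lin28b, Afp and Gpc3 held no AP-1 or ETS-type motif either, and the E-box stood 2 times in Igf2bp3 and 1 time in Lin28b. These letters were looked for in this window only.

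Genes known to follow ERK, the kinase below BRAF, fell in most cases: of 16 tested, 11 were lower and 2 higher with PLX4720 over all 6 lines, with a median of -1.06. The ETS factor Etv4 fell by 2.15 ± 0.16 on the log2 scale, the phosphatase Dusp6 by 1.43 ± 0.15 and the feedback inhibitor Spred1 by 0.85 ± 0.09. The 2 that rose were Egr1, at +1.62 ± 0.49 with an adjusted p of 0.03708, and Spry1, at +0.55 ± 0.07 with an adjusted p of 0.001145. By line, the median change of the 16 genes on the log2(CPM + 1) scale was -0.63, -1.22 and -1.49 in M1, M2 and M3 and -0.74, -0.68 and -0.56 in T1, T2 and T3. On the same scale Hmga2 stood at -1.49, -1.91 and -1.98 in M1, M2 and M3 and at -1.51, -2.22 and -1.64 in T1, T2 and T3, below that median in every line. Hmga1 stood at -1.43, -2.60 and -1.54 in M1, M2 and M3 and at -1.72, -1.50 and -1.11 in T1, T2 and T3, also below it in every line.

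**Figure D3:**
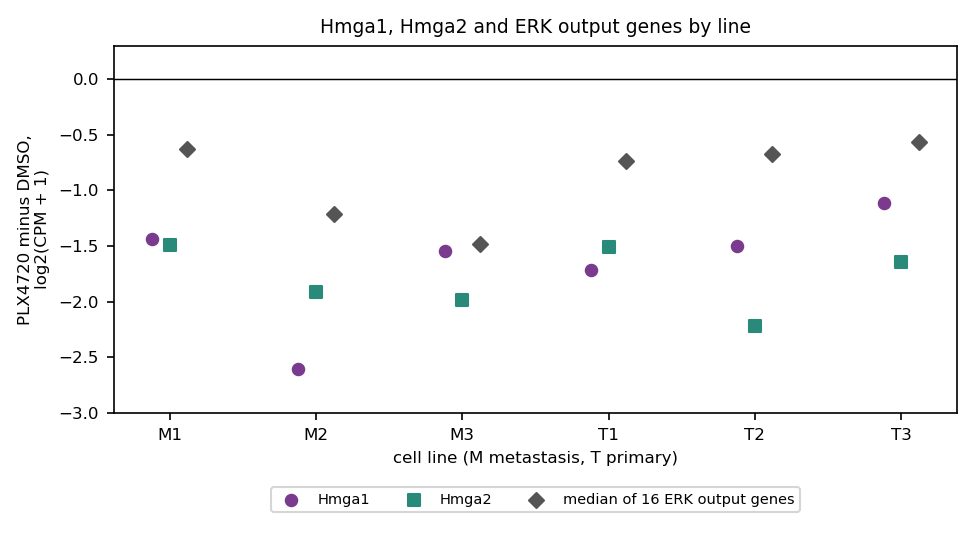
Change of Hmga1, Hmga2 and the median of 16 ERK output genes in each cell line, as PLX4720 minus DMSO on the log2(CPM + 1) scale, 1 pair of libraries per line. Both Hmga genes lie below the median of the list in all 6 lines, and M2 has the lowest value of Hmga1, at -2.60.

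Of 7 other high mobility group genes, 0 rose and 3 fell with PLX4720 over all 6 lines, by far less than the Hmga genes. Hmgb1, a nuclear DNA-bending protein and secreted alarm signal, fell by 0.22 ± 0.06 on the log2 scale with an adjusted p of 0.02058. Hmgb3 fell by 0.21 ± 0.06 with an adjusted p of 0.03276, lower in 4 of 6 lines, and Hmgb2 by 0.29 ± 0.09 with an adjusted p of 0.04941. The median of the 7 was -0.10. Between metastasis and primary lines under DMSO, Hmgb3 was lower at -0.70 ± 0.17 with an adjusted p of 0.04682 and the other 6 did not pass.

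Afp (ENSMUSG00000054932, chr5:90490737-90508907, plus strand) was expressed at low levels. It stood at 0.164, 0.0910 and 0.989 CPM with PLX4720 and 0.328, 0.179 and 2.93 CPM with DMSO in M1, M2 and M3, on 6, 3 and 34 fragments against 11, 6 and 101. In T1, T2 and T3 it stood at 7.97, 10.6 and 4.09 CPM with PLX4720 and 13.5, 11.1 and 6.32 CPM with DMSO. All 6 lines were lower with the drug, from 1.046 times in T2 to 2.97 times in M3. Its change was -0.92 ± 0.18 over all 6 lines with an adjusted p of 0.006363 and -1.37 ± 0.30 in metastasis lines with an adjusted p of 0.01383. Both calls rest on M3: without it the adjusted p was 0.08939 and 0.229. In primary lines the change was -0.48 ± 0.18 with an adjusted p of 0.138, and the difference between the sites was -0.89 ± 0.35 with an adjusted p of 0.2756.

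By site, Afp was lower in metastasis than in primary lines under PLX4720, at -4.14 ± 1.00 with an adjusted p of 0.04126, and stood at -3.16 ± 1.08 under DMSO with an adjusted p of 0.1214. The groups did not overlap under either treatment, a separation whose share over all genes is not given here. The call under PLX4720 was lost without T1, T2, T3, M1 or M2, at adjusted p of 0.08651, 0.1017, 0.06144, 0.1004 and 0.1031. Under DMSO it was gained without M3, at -5.30 with an adjusted p of 0.01646. Known regulators of the albumin and Afp genes differed by site: of 8 tested under DMSO, 5 were lower and 0 higher in metastasis lines, among them the liver factors Hnf4a, Foxa1 and Foxa2. Hnf4a averaged 0.127 ± 0.111 CPM in metastasis lines and 181 ± 60.4 CPM in primary lines with DMSO, and Foxa1 was at 0 fragments in all 3 metastasis libraries with DMSO against 13.0 ± 4.21 CPM in primary lines (SD, n = 3 lines each). With PLX4720 over all 6 lines, 2 of 11 rose and 0 fell. These were Cebpa, a hepatocyte factor, at +0.99 ± 0.15 with an adjusted p of 0.002358, and Zbtb20, a known repressor of Afp in the liver after birth, at +0.61 ± 0.15 with an adjusted p of 0.01536. Zbtb20 was higher with the drug in 4 of 6 lines. Its change was +0.98 ± 0.21 in metastasis lines, with an adjusted p of 0.01113. In primary lines it was +0.24 ± 0.20, with an adjusted p of 0.5008. T1 and T2 stood at -0.22 and -0.0038 on the log2(CPM + 1) scale, where Afp stood at -0.69 and -0.059. The part of Zbtb20 in the Afp change was not tested. Zhx2, another repressor of Afp, stood at +0.53 ± 0.21 with an adjusted p of 0.09253. By site under DMSO, Zhx2 stood at -1.56 ± 0.77 and Zbtb20 at -0.99 ± 0.43. Neither passed, with adjusted p of 0.2644 and 0.2127. Under PLX4720, Zhx2 was lower in metastasis lines, at -2.07 ± 0.51 with an adjusted p of 0.04289. Zbtb20 stood at -0.19 ± 0.40 there, with an adjusted p of 0.8143. The part of these regulators in the Afp difference by site was not tested.

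Gpc3 (ENSMUSG00000055653, chrX:52272426-52613950, minus strand) was nearly absent. It held 20, 4 and 15 fragments with PLX4720 and 5, 2 and 1 with DMSO in M1, M2 and M3, and 1 fragment at most in any primary library. Summed over the metastasis lines, 39 fragments with PLX4720 stood against 8 with DMSO, a ratio of 4.77 (95% interval 2.20 to 11.8, counting error only). All 3 metastasis lines had more with the drug, but the gene did not pass the filter and was not tested over lines. The highest level, 0.548 CPM in M1 with PLX4720, is under 1 CPM.

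Other genes of the glypican family, whose heparan sulphate chains bind growth factors, were expressed. Of 7 tested genes of glypicans, heparan sulfatases and Notum, PLX4720 raised 4 and lowered 0 over all 6 lines, with a median of +0.92. Notum, a secreted enzyme that inactivates Wnt proteins, rose by 0.92 ± 0.10 with an adjusted p of 0.0005728. Gpc4 rose by 1.0517 ± 0.22, Gpc6 by 0.51 ± 0.13 and the sulfatase Sulf1 by 1.58 ± 0.44, with adjusted p of 0.009108, 0.01761 and 0.02933. Gpc6 and Sulf1 were higher in 6 of 6 lines and Gpc4 in 5 of 6. By site under DMSO, Gpc2 was lower in metastasis lines, at 0 fragments in all 3 libraries against 54 over the 3 primary libraries, and the other 6 did not pass.

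Among 12 tested genes of fetal liver and liver progenitors other than Afp, 3 rose and 2 fell with PLX4720 over all 6 lines. Krt19, a keratin of bile duct and progenitor cells, rose by 0.75 ± 0.12 with an adjusted p of 0.003074 and was higher with the drug in 6 of 6 lines. Dlk1, a fetal liver surface protein, passed at +0.90 ± 0.23 with an adjusted p of 0.02932, but was higher in 3 lines, lower in 1 and at 0 fragments in T2 and T3; its change in metastasis lines was +0.08 ± 0.19 with an adjusted p of 0.823. Spp1, which encodes osteopontin, fell by 1.52 ± 0.18 on the log2 scale with an adjusted p of 0.000759. By site under DMSO, 5 of 9 tested were lower in metastasis lines and 0 higher, among them the surface proteins Cd24a at -10.0 ± 0.84, Tspan8 at -8.75 ± 0.85 and Epcam at -5.78 ± 0.78. Not all of the list was low there: under DMSO Dlk1 stood at +6.34 ± 2.16 and Spp1 at +1.19 ± 0.48. Neither passed, with adjusted p of 0.1194 and 0.181. Under PLX4720, 1 of 12 tested was higher in metastasis lines and 5 were lower. Epcam averaged only 1.83 CPM in primary lines with DMSO. The low Igf2bp1, Igf2bp3, Lin28b and Afp of metastasis lines therefore stood beside low epithelial genes and some low liver progenitor genes. The part of one in the other was not tested.

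**Figure D4:**
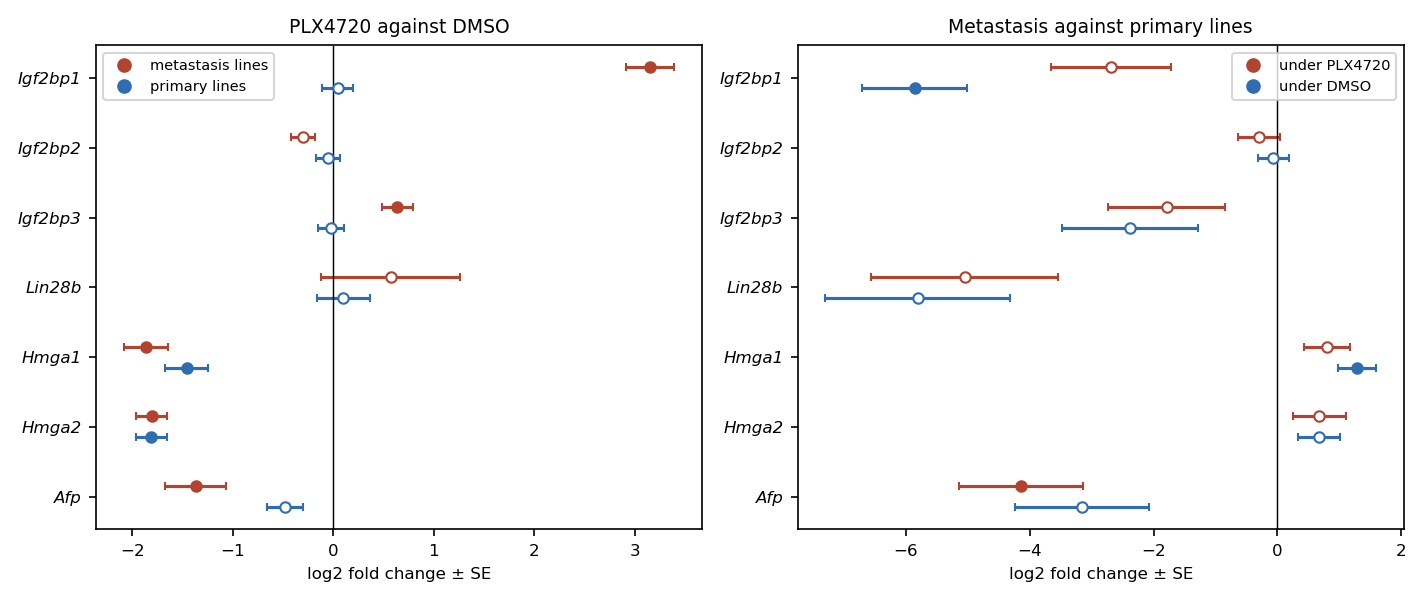
Fitted log2 fold changes of the 7 genes that passed the filter, with their standard errors: PLX4720 against DMSO in metastasis (red) and primary (blue) lines on the left, and metastasis against primary lines under PLX4720 (red) and DMSO (blue) on the right. Filled points have an adjusted p under 0.05. Igf2bp1 is the gene with unequal changes at the left, +3.15 in metastasis and +0.04 in primary lines.

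**Figure D5:**
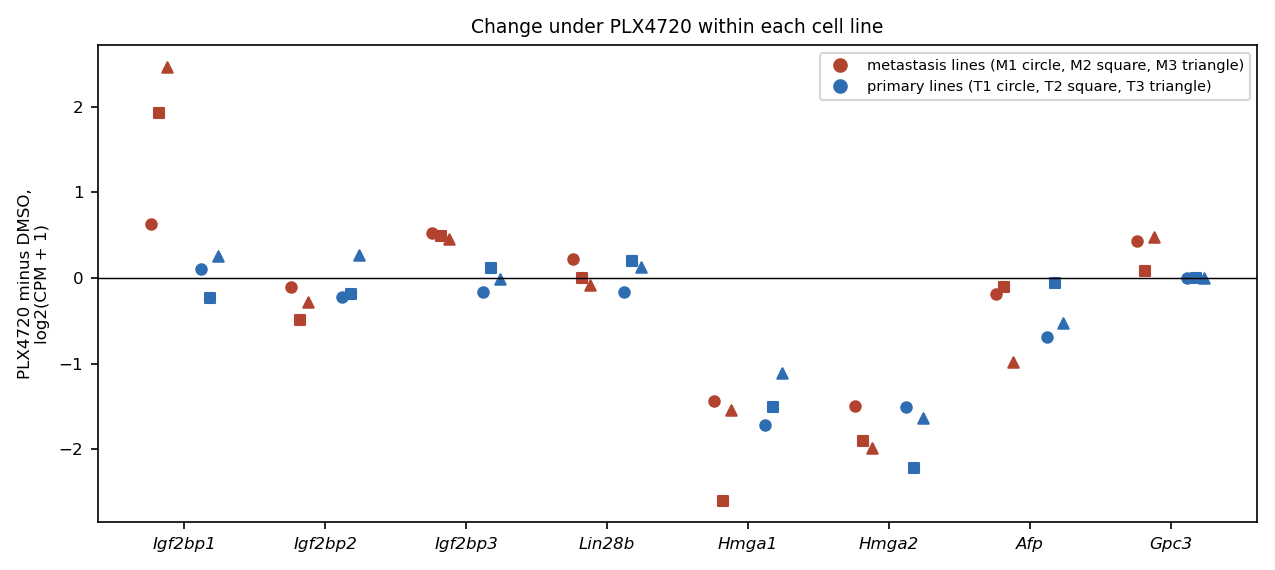
Change of each of the 8 genes within each cell line, as PLX4720 minus DMSO on the log2(CPM + 1) scale; this scale understates changes of genes near 0. Hmga1, Hmga2 and Afp lie below 0 in all 6 lines, and Igf2bp1 lies above 0 in M1, M2 and M3.

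For each gene that passed the filter, the genes with the most similar level were found by Pearson's r of log2(CPM + 1) over the 12 libraries, among 11909 named genes with a mean of at least 1 CPM. These are descriptions: libraries come in pairs of 1 line and share site and treatment, and what the likeness rests on was not tested. Igf2bp1 was most like Anxa3 (r = 0.965), Pla1a (0.965) and Fem1b (0.959). Igf2bp3 was most like Ddx19b (0.963), Prkx (0.960) and Dgke (0.957), and Igf2bp2 most like Ap3s2 (0.946), Nubp2 (0.912) and Sac3d1 (0.906). Lin28b was most like Arl14 (0.995), Eps8l3 (0.992) and Hoxa10 (0.984). Hmga1 was most like Ndst3 (0.930), Spred1 (0.921) and Dnajc21 (0.920), and Hmga2 most like Kdm8 (0.909), Sh2d5 (0.902) and Polr3g (0.897). Afp was most like Smg8 (0.976) and Nup210 (0.972).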

How the data were processed

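Libraries were of the stranded total RNA kind, with ribosomal RNA removed, per the labels' protocols. Per the file headers, the authors deposited unnormalized fragment counts for each gene, from featureCounts 1.5.2 over exons in Ensembl 84 (GRCm38), for pairs with both ends mapped and with no strand option, so that reads of overlapping genes on opposite strands are not separated. No source used here names the aligner. The tests ran in edgeR 4.0.16 under R 4.3.3 (filterByExpr, TMM, quasi-likelihood test, Benjamini-Hochberg adjustment over all genes tested, threshold 0.05). PLX4720 against DMSO was 1 fit of 12 libraries with the cell line as block and a treatment term per site; the sites were compared on the 6 libraries of each treatment without a block. Each fit left 4 residual degrees of freedom. The block rests on the line named in the labels: the PLX4720 and DMSO libraries of a line deviated together from their groups (r of 0.857 to 0.933). No pair of libraries of a group agreed within counting noise (chi-square per degree of freedom at least 142). SE is the absolute log2 change over the root of F and is approximate for genes with few fragments; SD is between lines. Intervals of ratios are exact conditional ones at 95% and cover counting error only, since reads carry no molecular identifiers. The fits were also run on simulated data with a fixed spread, where only well-counted genes were changed, by the same fold in every line. That setting does not cover genes with few fragments or the spread between these lines. Gene symbols came from the reference for 47224 of 47729 genes, and 2 listed symbols were matched through synonyms. The 8 genes and all lists were chosen with earlier results of these data known. The naming rule takes the 8 genes, up to 4 genes of each list with the smallest p in each of 2 comparisons, and the 3 most similar genes; Actb by site, Myc and Cdkn2a were printed beyond the called ones after their values were seen, and some genes the rule takes are not reported here. Alternatives were other scalings, no filter, DESeq2 1.42.0, each line left out, fits with and without blocks, M2 and M3 summed, a pseudocount of 0.1 CPM in place of 1, and Hmga1 with Hmga1b summed.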

Additional observations from a re-analysis of the deposited data

Results flagged for a closer look

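Igf2bp1 was singled out because its PLX4720 change differed between the sites by the test of the difference itself, at +3.11 ± 0.29 on the log2 scale (metastasis minus primary, edgeR adjusted p of 0.00298). All 3 metastasis lines were higher with the drug, at 4.20, 10.1 and 10.4 times, and the 3 primary lines stood at 1.08, 0.846 and 1.197 times. The metastasis lines with DMSO held only 7 to 32 fragments of it.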

How the results depend on the processing

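Without the cell line as a block (no replicate block), 0 of the 7 genes were called in each of the 4 comparisons that involve PLX4720; in that fit 14 of 16555 genes were higher and 4 lower over all 6 lines. In the other alternatives run, Igf2bp1, Hmga1 and Hmga2 were called over all 6 lines and in metastasis lines each time. Leaving out 1 line at a time gave 1 to 2 called genes in primary lines, 3 to 6 in metastasis lines, 1 to 3 by site under DMSO and 0 to 1 by site under PLX4720. By site, DESeq2 called 4 under DMSO and 3 under PLX4720. Under PLX4720, 2 were called by site with no filter, 2 with the replicate number as a block, which pairs no samples here (r of -0.1003 to 0.0067), and 2 with M2 and M3 summed. Counts over all genes by DESeq2 were 1246 higher and 1728 lower by site under DMSO, 1372 and 1791 under PLX4720, and 532 and 388 for the difference of the sites.

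Changes near 0 that did not pass turned sign. The Hmga2 difference between sites was -0.0147 with DESeq2 size factors, -0.0562 with total counts, -7e-04 with no filter, -0.0144 with DESeq2 and -0.0013 with no replicate block, and ran from -0.264 to 0.1001 with 1 line left out. With 1 line left out, changes in primary lines ran from -0.0474 to 0.2066 for Igf2bp1, -0.187 to 0.0509 for Igf2bp2 and -0.0697 to 0.0675 for Igf2bp3, and Igf2bp2 by site under DMSO from -0.23 to 0.1515. Lin28b ran from -0.6482 (without M1) to 0.6794 over all 6 lines, from -1.3816 to 1.2394 in metastasis lines and from -1.4669 to 1.1201 for the difference. Primary lines gave 0.027 for Igf2bp3 with total counts and -0.0934 for Lin28b with no replicate block. The cause was not tested. Few fragments of Igf2bp1, Lin28b, Afp and Gpc3 in metastasis lines limit their precision: the Igf2bp1 change in M1 was 0.63 with a pseudocount of 1 CPM and 1.66 with 0.1 CPM.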
